A study of Mus musculus with 10 samples.

Results

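The comparison described here sets left atria from adult mice labelled as cardiac knockouts of Csk against left atria from wild-type adults. The series is on atrial fibrillation under ibrutinib, a kinase inhibitor, and all of its poly(A) RNA-seq libraries come from the left atrium of adult mice. The WT group holds the libraries WT35 and WT338, labelled wild type. The KO group holds the libraries KO26 and KO337, labelled cardiac CSK KO. The sources used here do not give the allele, the promoter behind the deletion or whether animals were pooled. The other 6 libraries, 3 named CTL and 3 named IBR, carry a treatment label and no genotype, and serve for the shared estimate of spread, for one test of the difference between both effects and as a range beside some levels. A gene was taken into the comparison where at least 2 of the 4 WT and KO libraries held 10 or more reads, which kept 14894 of the 37583 gene rows, and 4 of the 10 libraries are compared.

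Csk is a tyrosine kinase that phosphorylates the C-terminal tail of Src family kinases and so holds them inactive, while phosphatases such as the product of Ptprc, CD45, remove that mark. Ibrutinib was made to inhibit Btk, a kinase of B cells and myeloid cells, and Csk is one of its known other targets. The atrium is built of heart muscle cells, fibroblasts, endothelium and resident macrophages. MHC class II molecules, which present peptides to helper T cells, are made mainly by macrophages, dendritic cells and B cells.

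Csk itself stood at 18.1 and 17.7 CPM in the WT libraries and 24.6 and 35.2 CPM in KO26 and KO337, where CPM is the read count relative to library size, after scaling by the trimmed mean of M-values (TMM). The gene level was thus higher in both libraries labelled KO than in either WT library, by a log2 difference of 0.74 (SE 0.18, adjusted p = 0.0589 in edgeR's quasi-likelihood test), and did not pass the threshold. These counts sum over all exons and all cells of the atrium, so loss of an exon in heart cells was not tested, and the libraries are called by their labels throughout. The 4 libraries held between 14907331 and 19960947 reads on genes. The 10 most abundant genes took 12.8% and 12.4% of the reads in the WT libraries, 10.8% in KO26 and 7.03% in KO337. Markers of heart muscle cells were abundant in all 4 libraries, as the plot of summed levels shows. Whether the libraries of a group come from separate animals is not stated. The p-values then reflect how much these libraries vary, which may be technical.

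Of the 14894 genes tested, 220 (1.48%) were higher and 150 (1.01%) lower in the libraries labelled KO at an adjusted p under 0.05, together 370 or 2.48%. The median log2 difference was 2.28 among genes that rose, -1.32 among genes that fell and 0.01 among all tested genes. These calls borrow the spread of the CTL and IBR libraries. A fit of the WT and KO libraries alone called 0 genes in edgeR, with 2114 (14.2%) at an unadjusted p under 0.05 and a smallest adjusted p of 0.0537. The biological coefficient of variation was 0.290 within WT and KO, 0.164 within CTL and IBR and 0.217 in the fit of all 10 libraries. The shared spread behind the calls is thus smaller than that of WT and KO alone. Adjusted p-values may therefore be too small for genes that vary more within KO. For a single gene, an exact permutation test of 2 libraries against 2 cannot go below p = 0.333. In 7992 genes (53.7%) the WT and KO values did not overlap, which sets the background for such statements. These include all 220 genes called higher and all 150 called lower, so for a called gene the lack of overlap adds no support. At an unadjusted p under 0.05 stood 2016 genes (13.5%) in the higher and 1898 genes (12.7%) in the lower direction, the background for the unadjusted counts of gene lists below.

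**Figure D1:**
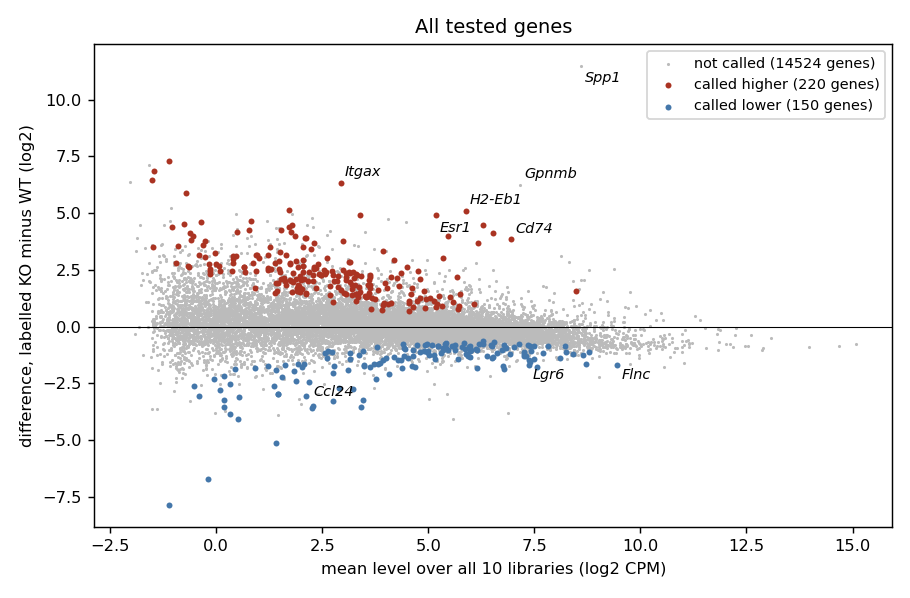
Each point is one of the 14894 tested genes; the horizontal axis is its mean level over all 10 libraries (log2 CPM) and the vertical axis the fitted difference, labelled KO minus WT (log2). Red points are the 220 genes called higher and blue points the 150 called lower; Spp1 and Gpnmb, high in KO337 alone, lie far above 0 without being called.

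MHC class II genes showed some of the largest and most even differences. Of 16 tested genes of the class II pathway, 8 rose and 0 fell, and the median log2 difference of the list was 2.87. H2-Eb1, the beta chain of I-E, stood at 7.67 and 6.44 CPM in the WT libraries and 254 and 226 CPM in KO26 and KO337, 33.9-fold higher in the libraries labelled KO (log2 difference 5.08, SE 0.55, adjusted p = 0.00941). The beta and alpha chains of I-A were H2-Ab1 at 12 and 9.25 against 177 and 159 CPM (log2 3.98, adjusted p = 0.019) and H2-Aa at 25.2 and 18.2 against 300.4 and 257 CPM (log2 3.68, adjusted p = 0.0275). Cd74, the invariant chain that escorts class II molecules through the cell, stood at 37.5 and 29.7 CPM in the WT libraries and 512 and 453 CPM in KO26 and KO337 (log2 3.84, adjusted p = 0.0233). KO26 and KO337 lay close together in all 4 of these genes, and neither came near a WT library. Summed over these 4 genes, the levels were 82.4 and 63.6 CPM in WT35 and WT338 and 1244 and 1095 CPM in KO26 and KO337.

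The genes that load peptides onto class II molecules moved with the chains. H2-DMa and H2-DMb1 encode the exchange factor H2-DM and stood at 2.65 and 1.81 against 24.3 and 11.8 CPM (adjusted p = 0.0282) and 1.43 and 0.938 against 18.2 and 12.9 CPM (adjusted p = 0.0321), in the order WT35, WT338, KO26 and KO337. H2-Ob, a chain of the H2-DM modulator H2-O, stood at 0.59 and 1 against 5.94 and 3.95 CPM (adjusted p = 0.0446). In all 3 the level in KO26 was above that in KO337. Ctss, the cysteine protease that trims the invariant chain, stood at 15 and 15.8 CPM in the WT libraries and 52.5 and 625 CPM in KO26 and KO337 (log2 difference 4.46, SE 0.92, adjusted p = 0.0433). Here KO337 was 11.9-fold above KO26. Ciita, the master regulator of class II transcription, stood at 3.1 and 2.5 CPM in the WT libraries and 17.5 and 4.44 CPM in KO26 and KO337 and did not pass the test (adjusted p = 0.12). Its partners Rfx5, Rfxap and Rfxank, which bind the class II promoter in many cell types, had log2 differences of 0.39, 0.09 and -0.54, and none passed.

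The promoters of 4 class II genes that rose are printed, those whose last 120 bases before the start hold a CCAAT box, so that the box is no finding among these 4. This element, called the Y box in class II promoters, is a binding site of the factor NF-Y. The sequences are the 120 bases just before the transcription start in RefSeq, build GRCm38.p6, 5′ to 3′ on the strand of the gene, with CCAAT on either strand (ATTGG on the strand shown) in capitals.
H2-Eb1 (chr17:34305747-34305866, plus strand): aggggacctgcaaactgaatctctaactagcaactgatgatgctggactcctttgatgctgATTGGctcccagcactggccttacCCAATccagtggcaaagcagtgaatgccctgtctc
H2-Aa (chr17:34287824-34287943, minus strand): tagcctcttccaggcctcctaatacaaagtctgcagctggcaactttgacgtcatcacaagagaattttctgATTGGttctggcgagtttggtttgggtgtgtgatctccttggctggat
H2-DMb1 (chr17:34153071-34153190, plus strand): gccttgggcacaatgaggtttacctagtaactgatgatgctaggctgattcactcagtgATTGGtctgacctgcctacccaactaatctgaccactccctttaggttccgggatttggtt
H2-Ob (chr17:34238785-34238904, plus strand): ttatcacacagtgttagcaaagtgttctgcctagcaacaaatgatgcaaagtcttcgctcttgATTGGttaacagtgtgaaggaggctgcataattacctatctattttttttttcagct
On the strand shown, the capitals nearest the upstream end begin 48 bases before the start in H2-Aa, 57 in H2-Ob, 59 in H2-Eb1 and 61 in H2-DMb1. A chosen set, not all class II genes, was searched: H2-Aa, H2-Ab1, H2-Eb1, H2-DMa, H2-DMb1, H2-Oa and H2-Ob. The search took both strands of the 250 bases before the start. CCAAT was present in 6 of the 7 promoters that the table used here gives for this set, and in 33.8% of all 32851 promoters of the table. The 6 include H2-Oa, which was not called. Of 2 promoters of H2-DMa, 1 holds the letters, at position -198 from the start and so outside the 120 bases, and the other does not. H2-Ab1 was not matched. The match is a description of the sequence and shows no binding.

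MHC class I genes were also higher, and here KO26 stood above KO337. Of 14 tested genes of the class I pathway, 3 rose and 0 fell, with a median log2 difference of 1.34. H2-D1, a classical class I heavy chain, stood at 255 and 253 CPM in the WT libraries and 1035 and 450.0 CPM in KO26 and KO337 (log2 1.55, adjusted p = 0.049). The non-classical heavy chains H2-T23 and H2-M3 stood at 41.5 and 38.6 against 109 and 89 CPM (adjusted p = 0.0383) and 6.44 and 6.44 against 20.4 and 14.1 CPM (adjusted p = 0.0354). Both KO libraries lay above both WT libraries in these 3 genes. B2m, the light chain, at 296 and 310.2 against 1352 and 531 CPM (adjusted p = 0.0526) and H2-K1 at 212 and 212 against 1427 and 329.9 CPM (adjusted p = 0.0638) did not pass. In 13 of the 14 genes KO26 was the higher of the KO pair, and the summed level was 4449 CPM in KO26 against 1835 CPM in KO337 and 1146 and 1161 CPM in WT. H2-Q6 and H2-Q7, non-classical genes of the Q region, stood at 28.3 and 32.1 against 320.1 and 19.9 CPM and 11.7 and 13.2 against 180.1 and 12.4 CPM, so only KO26 was high. The H2 genes are near-identical in places, and how reads shared between them were counted can move their values.

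Interferon-induced genes followed with smaller differences. Among 29 tested members 2 rose, 18 were higher at an unadjusted p under 0.05 and 26 were higher without overlap between the groups, against 26.4% of all tested genes, with a median log2 difference of 1.01. Ifit2, an antiviral protein that binds foreign RNA, stood at 8.31 and 5.63 CPM in the WT libraries and 23.5 and 23.2 CPM in KO26 and KO337 (log2 1.74, adjusted p = 0.0481). Irf7, the factor that amplifies type I interferon production, stood at 7.28 and 7.75 CPM in the WT libraries and 26.5 and 22.8 CPM in KO26 and KO337 (log2 1.72, adjusted p = 0.049). The KO pair lay within 1.5-fold in both, as it did in 9818 of all 14894 tested genes.

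Several groups of leukocyte genes held members that rose. Ptprc, which encodes CD45, the phosphatase on all nucleated blood cells, stood at 13.7 and 13.4 CPM in the WT libraries and 48.7 and 119.6 CPM in KO26 and KO337 (log2 difference 2.64, SE 0.42, adjusted p = 0.0275). In bulk tissue a larger number of such cells and more RNA per cell cannot be told apart. Among 12 tested regulators and partners of Csk, 3 rose and 0 fell: besides Ptprc these were Ptpn22, a phosphatase that binds Csk in lymphocytes, at 1.28 and 1.44 against 6.98 and 9.07 CPM (log2 2.56, adjusted p = 0.0131), and Ptpn6, the phosphatase SHP-1 of blood cells, at 4.42 and 2.31 against 9.4 and 23.1 CPM (adjusted p = 0.048). Among the 11 tested kinases of the Csk and Src families, 1 rose and 0 fell. The broadly expressed Src stood at 9.73 and 14.1 against 16.5 and 21 CPM (adjusted p = 0.13), and Fyn and Yes1 had log2 differences of 0.02 and 0.03. None of these 3 passed. Among the Tec and ErbB family kinases 2 of 9 genes rose, among them Btk at 2.36 and 1.44 against 4.67 and 11.7 CPM (log2 2.10, adjusted p = 0.0438). Of the 9, 3 were higher and 2 lower at an unadjusted p under 0.05 in edgeR, and the median log2 difference was 0.24.

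Of 14 tested integrins and adhesion partners by which leukocytes leave the blood, 6 rose, 0 fell and 8 did not pass, with a median of 2.34. Itgal, the alpha chain of LFA-1, stood at 0.934 and 0.938 CPM in the WT libraries and 11.5 and 6.69 CPM in KO26 and KO337 (log2 3.27, adjusted p = 0.0274). Itgb7 stood at 0.59 and 0.625 against 6.69 and 4.26 CPM (adjusted p = 0.0274), and Selplg, the ligand of P-selectin, at 3.15 and 3.13 against 10.7 and 22.8 CPM (adjusted p = 0.0275). Itgb2 and Itgax, the beta chain and an alpha chain found on myeloid cells, stood at 7.77 and 8.44 against 22.7 and 102 CPM (adjusted p = 0.0383) and 0.639 and 0.188 against 3.11 and 68 CPM (adjusted p = 0.049). For Itgb2 and Itgax, KO337 was 4.48-fold and 21.8-fold above KO26, while for Itgal KO26 was the higher.

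Among the 7 tested genes of the phagocyte oxidase, which makes superoxide, 4 rose and the other 3 were higher at an unadjusted p under 0.05. Cybb, its catalytic subunit, stood at 17.7 and 16.1 CPM in the WT libraries and 62.1 and 124 CPM in KO26 and KO337 (log2 2.46, adjusted p = 0.0248). Ncf4, a cytosolic subunit, stood at 1.87 and 1.25 against 7.09 and 14.6 CPM (adjusted p = 0.0383), and Rac2, the GTPase that activates the complex, at 3.54 and 3.5 against 12.1 and 22.8 CPM (adjusted p = 0.0404). The order was the same in all 3, with KO337 highest and KO26 between it and the WT pair. Of 17 genes for Fc receptors and their signalling adaptors, 5 rose, among them Fcgr4 at 0.344 and 0.125 against 4.21 and 8.53 CPM (adjusted p = 0.0293), the inhibitory receptor Pirb at 5.6 and 6.13 against 13.7 and 43.2 CPM (adjusted p = 0.0383) and Vav1, an exchange factor for Rac, at 3.69 and 2.88 against 10.1 and 21.7 CPM (adjusted p = 0.029). Fcgr4 held fewer than 10 reads in each WT library and passed the filter through the KO libraries alone. KO337 was the higher of the KO pair in all 17 genes. The adaptor Fcer1g at 6.78 and 7 against 14.8 and 67.2 CPM (adjusted p = 0.0526) did not pass, and Syk, the kinase that docks on these adaptors, had a log2 difference of -0.05.

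Transcription factors of the myeloid lineage were among the genes that rose; they were chosen for mention after their values were seen. Spi1, which encodes PU.1, stood at 3.29 and 3.94 CPM in the WT libraries and 10.8 and 22.6 CPM in KO26 and KO337 (log2 2.21, adjusted p = 0.0354). Ikzf1, a factor of lymphoid and myeloid precursors, stood at 3.15 and 1.88 against 9.17 and 12.4 CPM (adjusted p = 0.035). Cebpa stood at 8.46 and 7.56 against 16.1 and 30.5 CPM (adjusted p = 0.0382) and Maf at 30.7 and 18.9 against 56.9 and 63.7 CPM (adjusted p = 0.0383). For Maf and Ikzf1 the KO pair lay within 1.5-fold, and for Spi1 KO337 was 2.09-fold above KO26.

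Markers of single cell types were read list by list. Of 17 macrophage markers 3 rose and 0 fell (median 1.85): Adgre1, which encodes F4/80, at 20.7 and 17 against 53.8 and 109 CPM (adjusted p = 0.0261), the fractalkine receptor Cx3cr1 at 2.31 and 1.06 against 12.8 and 23.8 CPM (adjusted p = 0.0321) and the high-affinity IgG receptor Fcgr1 at 2.26 and 2.38 against 6.86 and 17.5 CPM (adjusted p = 0.0459). Lyz2, a lysozyme of myeloid cells, stood at 150.5 and 148 against 305 and 1824 CPM, highest in KO337. Cd68, a lysosomal protein of macrophages, stood at 16.2 and 21.3 against 16.3 and 171 CPM, high in KO337 alone. Of the 17 markers 10 were higher without overlap between the groups, against 26.4% of all tested genes. Another 3 were lower without overlap, a smaller share than the 27.3% of all tested genes. These 3 were picked for mention after their values were seen: Folr2 stood at 18.7 and 23.9 against 12.9 and 12.4 CPM (adjusted p = 0.0702), Timd4 at 5.31 and 7.69 against 5.07 and 2.2 CPM (adjusted p = 0.261) and Cd163 at 36 and 40.4 against 32.2 and 15.4 CPM (adjusted p = 0.202). None of the 3 passed. Of 13 monocyte and dendritic cell markers 4 rose. Ccr2, the chemokine receptor of recruited monocytes, stood at 1.57 and 0.625 CPM in the WT libraries and 21.9 and 11.7 CPM in KO26 and KO337 (log2 3.90, adjusted p = 0.0285). Plac8 stood at 0.59 and 0.938 against 5.31 and 8.17 CPM (adjusted p = 0.0348), and Batf3, a factor of cross-presenting dendritic cells, at 0.0983 and 0.125 against 1.56 and 1.17 CPM (adjusted p = 0.047). Batf3 held fewer than 10 reads in each WT library and passed the filter through the KO libraries alone.

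Of 13 tested T and NK cell markers 3 rose and 0 fell, and their median of 2.68 was high at a low level of expression. Cd3e, a chain of the T cell receptor complex, stood at 0.246 and 0.25 against 1.79 and 1.48 CPM (adjusted p = 0.0385), Cd8a at 0.0983 and 0.125 against 3.17 and 0.987 CPM (adjusted p = 0.0445) and Ccl5, a chemokine of T cells, at 0.246 and 0.313 against 7.55 and 2.69 CPM (adjusted p = 0.0382). KO26 held more than KO337 in these 3 genes. Summed over the list, T and NK cell markers stood at 9.29 and 12.1 CPM in WT and 37 and 25.7 CPM in KO26 and KO337. No gene passed in edgeR among 11 B and plasma cell markers (2 higher at an unadjusted p under 0.05) or among 8 neutrophil and mast cell markers (2 higher). Of 15 endothelial markers, 0 passed, 0 reached an unadjusted p under 0.05 in edgeR, and the median was 0.16.

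**Figure D2:**
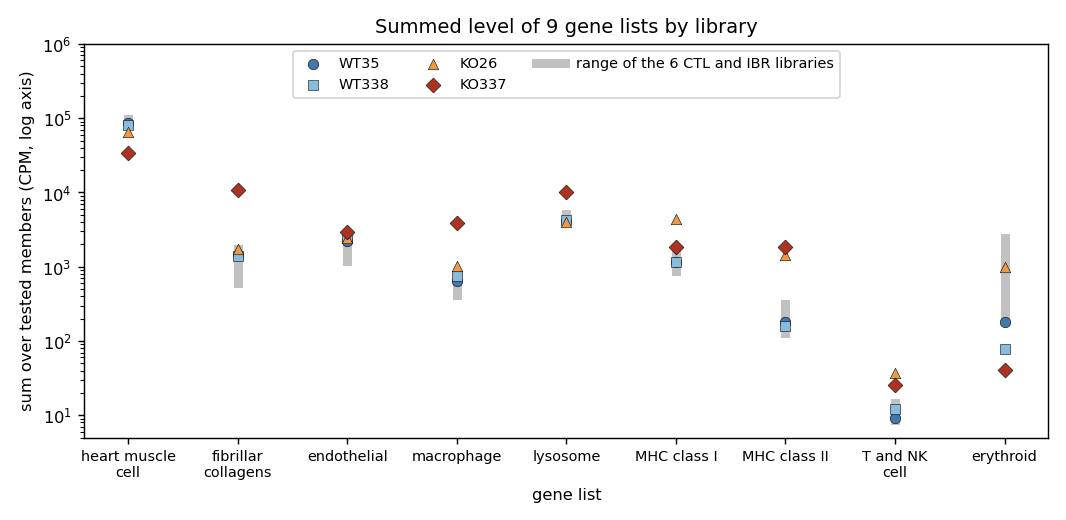
Each point is the sum of CPM over the tested members of a marker list in one library (log axis), and the grey bar spans the 6 CTL and IBR libraries. Heart muscle cell markers stand at 84999 and 79921 CPM in WT, 64743 CPM in KO26 and 34318 CPM in KO337; fibrillar collagens and macrophage markers stand out in KO337 and class I genes in KO26.

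Chemokines moved in both directions, and the 2 that fell had the smallest p-values of the list. Of 23 tested chemokine genes, 3 rose and 2 fell. Ccl11 and Ccl24 encode eotaxins, which attract eosinophils through the receptor Ccr3. Ccl11 stood at 13.1 and 16.1 CPM in the WT libraries and 1.73 and 1.3 CPM in KO26 and KO337 (log2 difference -3.27, SE 0.39, adjusted p = 0.0102), 9.64-fold lower in the libraries labelled KO. Ccl24 stood at 9.64 and 10.9 CPM in the WT libraries and 1.9 and 1.84 CPM in KO26 and KO337 (log2 difference -2.45, SE 0.26, adjusted p = 0.00707), 5.48-fold lower. Both KO libraries lay far below both WT libraries and close to each other. Ccl8, a CC chemokine that attracts leukocytes, rose at 3.1 and 2.69 against 18.2 and 10.5 CPM (adjusted p = 0.0261), and Cx3cl1, the ligand of Cx3cr1, rose at 11.2 and 10.6 against 21.8 and 75.6 CPM (adjusted p = 0.0457) with KO337 highest. Of 17 tested cytokines 1 rose, Il1b, at 1.82 and 1.63 against 12.7 and 34.7 CPM (log2 3.78, adjusted p = 0.0306). Casp1, the protease that activates interleukin 1 beta, stood at 3.1 and 3.06 against 9.17 and 10.8 CPM (adjusted p = 0.0309).

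**Figure D3:**
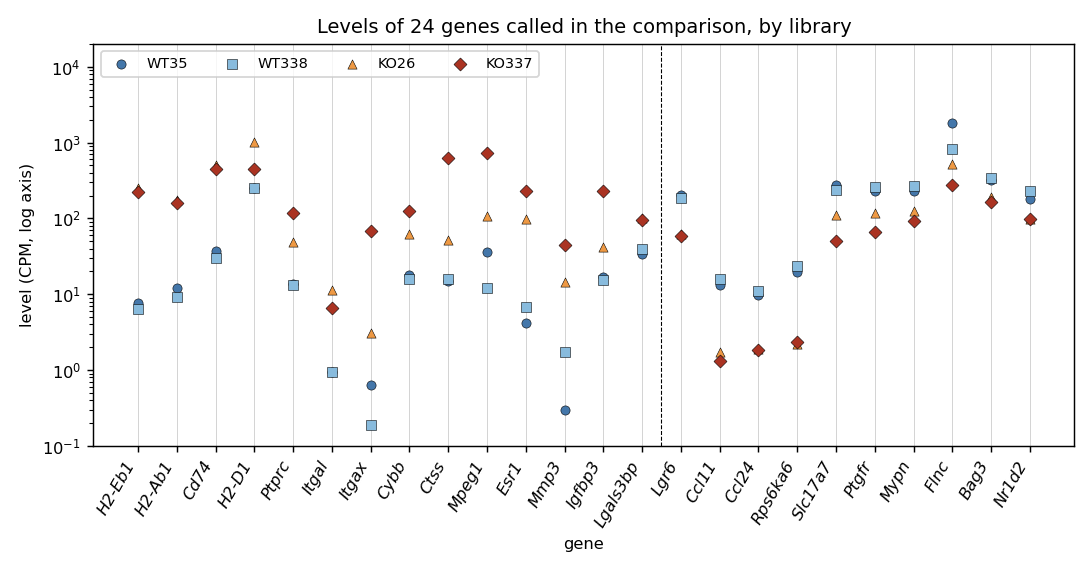
Points are the CPM of 24 called genes in each library on a log axis; genes that rose stand left of the dashed line and genes that fell right of it. For H2-Eb1, H2-Ab1, Cd74, Lgals3bp, Lgr6, Ccl24 and Nr1d2 the KO points nearly coincide, while for Ctss, Itgax, Mpeg1 and Igfbp3 KO337 lies far above KO26.

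Genes with the largest folds or differences in CPM included several with other roles. Esr1, the estrogen receptor alpha, stood at 4.13 and 6.88 CPM in the WT libraries and 98.2 and 232 CPM in KO26 and KO337 (log2 difference 4.92, SE 0.56, adjusted p = 0.0102), 30.2-fold higher. The counts are per gene, so which part of Esr1 the reads cover, and whether all stem from the native gene, was not tested. Esr1 was the 1 called gene on a list of 22 tested nuclear receptors, which leaves out the clock repressors, and whose median log2 difference was -0.22. Mmp3, a matrix metalloproteinase, stood at 0.295 and 1.75 against 14.4 and 45.1 CPM (adjusted p = 0.0309), and Angptl7, a secreted angiopoietin-like protein, at 0.934 and 0.688 against 5.71 and 20.2 CPM (adjusted p = 0.0404). Igfbp3, a carrier of insulin-like growth factors, stood at 17.1 and 15.6 against 42.5 and 227 CPM (adjusted p = 0.0472), and Edn1, the vasoconstrictor endothelin 1, at 3.29 and 1.69 against 7.96 and 25.9 CPM (adjusted p = 0.0438). In these 5 genes both KO libraries were above WT and KO337 was the highest. Mpeg1, a pore-forming protein of macrophages, stood at 35.7 and 11.9 against 106 and 724 CPM (adjusted p = 0.0474), and Lcp1, the leukocyte plastin that bundles actin, at 34 and 36.9 against 79.5 and 246 CPM (adjusted p = 0.0383).

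Some genes rose to nearly the same level in both libraries labelled KO. Lgals3bp, a secreted galectin-binding glycoprotein, stood at 34.5 and 39.7 CPM in the WT libraries and 101 and 96.7 CPM in KO26 and KO337 (log2 difference 1.41, SE 0.19, adjusted p = 0.0182). Elk3, an ETS factor, stood at 26.1 and 22.1 against 52.9 and 59.1 CPM (adjusted p = 0.049), Samd9l, an interferon-induced gene, at 31 and 22.6 against 57.1 and 61.4 CPM (adjusted p = 0.039) and Fmnl1, a formin of leukocytes, at 10.2 and 9.81 against 22.4 and 24.9 CPM (adjusted p = 0.036). Klhl6 stood at 13.5 and 9.63 against 27.4 and 27 CPM (adjusted p = 0.0318) and Npl, a lyase of sialic acid, at 2.51 and 2.31 against 7.96 and 7.76 CPM (adjusted p = 0.0383). These genes were picked for having the closest KO values, so that closeness is a description.

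Among genes that fell, Lgr6 had the smallest adjusted p of any named gene. Lgr6, a receptor for R-spondins that strengthens Wnt signalling, stood at 203 and 189 CPM in the WT libraries and 61.7 and 58.5 CPM in KO26 and KO337 (log2 difference -1.70, SE 0.16, adjusted p = 0.00384), 3.26-fold lower. Rps6ka6, a ribosomal S6 kinase, stood at 19.7 and 23.3 CPM in the WT libraries and 2.19 and 2.33 CPM in KO26 and KO337 (log2 -3.24, adjusted p = 0.0102). Sh3gl2, the endocytic adaptor endophilin A1, stood at 6.19 and 4.38 against 0.577 and 0.359 CPM (adjusted p = 0.00707). Neither KO library reached a WT level in any of the 3, and the KO pair lay within 1.5-fold in Lgr6 and Rps6ka6. The KO values of Sh3gl2 are low. Before TMM scaling, 3 reads are worth 0.201 CPM in KO26 and 0.166 CPM in KO337, and the scaling makes both smaller. Vsnl1, a calcium sensor, stood at 4.87 and 3.19 against 0.519 and 0.494 CPM (adjusted p = 0.0445). Igfbpl1 at 13.8 and 13.1 against 1.9 and 0.494 CPM (adjusted p = 0.0155) and Casc1 at 10.6 and 18.4 against 2.88 and 1.44 CPM (adjusted p = 0.019) fell to a similar depth. Egf, the epidermal growth factor, and Nos1, the neuronal nitric oxide synthase of heart muscle cells, were chosen after their values were seen and fell at 35.9 and 28.6 against 12.3 and 6.28 CPM (adjusted p = 0.0195) and 13.5 and 10.6 against 4.38 and 1.53 CPM (adjusted p = 0.0459).

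Some genes of the Z disc fell, among many members that were lower without passing the test. Flnc, the muscle filamin that links Z discs to the membrane, stood at 1796 and 819.8 CPM in the WT libraries and 523 and 274 CPM in KO26 and KO337 (log2 difference -1.72, SE 0.37, adjusted p = 0.0445). The 2 WT values of Flnc are themselves more than 2-fold apart. Bag3, the co-chaperone that clears damaged filamin, stood at 320.1 and 337.2 CPM in the WT libraries and 192 and 167 CPM in KO26 and KO337 (log2 -0.87, adjusted p = 0.032). Mypn, which encodes myopalladin of the Z disc, stood at 228 and 269 against 127 and 91.2 CPM (adjusted p = 0.0261). Of 20 tested Z disc and stretch genes 2 fell, 13 were lower at an unadjusted p under 0.05, and the median was -0.84.

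Each of 3 ion channel lists held 1 gene that fell. Cacna1h, a T-type calcium channel, stood at 187 and 185 against 109.7 and 62.7 CPM (adjusted p = 0.0445), and Kcna1, a voltage-gated potassium channel also found in nerve, at 20.5 and 18.3 against 5.65 and 4.58 CPM (adjusted p = 0.0354). In both genes the KO values lay below both WT values. Kcna1 was also the 1 called gene among 8 tested Schwann cell and nerve markers, whose median was -1.02. Of these markers 5 were lower and 0 higher at an unadjusted p under 0.05 in edgeR, against 12.7% and 13.5% of all tested genes. The medians of the channel lists were -0.75 over 15 sodium and pacemaker channel genes, -0.42 over 10 calcium channel genes and -0.70 over 20 potassium channel genes. Among 20 genes of calcium handling 2 fell, Camk2a, a calmodulin-dependent kinase, at 89.7 and 85.3 against 52.4 and 26 CPM (adjusted p = 0.0445) and Ppp1r1a, an inhibitor of protein phosphatase 1, at 3.15 and 3.5 against 1.15 and 0.942 CPM (adjusted p = 0.0383). Atp2a2, the calcium pump of the sarcoplasmic reticulum, and Ryr2, its release channel, had log2 differences of -0.87 and -0.94 and did not pass.

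Sarcomere and atrial identity genes were lower in level with no call. In edgeR, 0 of 19 sarcomere genes passed while 12 were lower at an unadjusted p under 0.05, with a median of -0.85. Of 14 atrial muscle genes 0 passed and 7 were lower at an unadjusted p under 0.05 in edgeR, with a median of -0.72. Myl7, the atrial regulatory light chain, stood at 4591 and 4934 CPM in the WT libraries and 3207 and 2026 CPM in KO26 and KO337 (log2 -0.86, adjusted p = 0.112). Mybphl, a myosin-binding protein of the atrium, stood at 832 and 697 against 476 and 329.5 CPM (adjusted p = 0.0526), and Sln, the atrial inhibitor of the calcium pump, at 1895 and 1769 against 1290.4 and 644 CPM (adjusted p = 0.128). The natriuretic peptide genes differed little: Nppa stood at 4486 and 4169 against 4505 and 3654 CPM (log2 -0.09) and Nppb at 935 and 412 against 694 and 625 CPM (log2 -0.03).

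Mitochondrial energy genes were lower by a similar step in each list, and no member passed. Of 35 tested subunits and assembly factors of respiratory complex I, 0 passed in edgeR and 33 were lower at an unadjusted p under 0.05, against 12.7% of all tested genes. The same counts were 0 and 28 of 33 for complexes II to V, 0 and 19 of 22 for the citric acid cycle, and 0 and 24 of 28 for fatty acid oxidation. The medians were -0.74, -0.75, -0.83 and -0.82, close to the -0.77 of 11 heart muscle cell markers. Members of one complex share cells and libraries, so their counts are not independent. Glycolysis and glycogen genes had a median of -0.44 with 0 of 24 passing and 13 lower at an unadjusted p under 0.05. Plin4, a coat protein of lipid droplets, fell at 385 and 415 against 189 and 161 CPM (adjusted p = 0.035), and Ivd, an enzyme of leucine breakdown, fell at 245 and 320.2 against 149 and 89.3 CPM (adjusted p = 0.0438).

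The circadian clock list held 2 genes that fell among 18. Nr1d2, the gene of the clock repressor REV-ERB beta, stood at 182 and 231 CPM in the WT libraries and 98.9 and 98.6 CPM in KO26 and KO337 (log2 -1.06, adjusted p = 0.0404). Hlf, a clock-controlled PAR bZIP factor, stood at 45.6 and 48.2 against 17.6 and 8.62 CPM (adjusted p = 0.0383), and Noct, a rhythmic enzyme not on the list, stood at 124 and 182 against 56.7 and 58.4 CPM (adjusted p = 0.032). Dbp and Per2 had log2 differences of -1.75 and -1.33 and Arntl, which peaks in the opposite phase, of 0.86, with adjusted p of 0.093, 0.137 and 0.484. The hour of collection is not given in the sources used here, and its part in these values was not tested. Among 19 heat shock genes Bag3 was the 1 that passed, and the list's median was -0.65.

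KO26 and KO337 were far less alike than the WT libraries. Of 12578 genes with a mean of 2 CPM or more, 1630 (13%) differed 2-fold or more between KO26 and KO337, against 457 (3.63%) between WT35 and WT338. Set against the WT mean, 328 of these genes were 2-fold higher in both KO libraries, 1026 in KO337 alone and 143 in KO26 alone. In the other direction 152 were 2-fold lower in both, 1087 in KO337 alone and 148 in KO26 alone. Of the 220 genes that rose, KO337 was the higher of the pair in 177, and 94 lay within 1.5-fold between KO26 and KO337. Of the 150 that fell, KO337 was the higher in 27, and 100 lay within 1.5-fold. Over all 14894 tested genes, KO337 was the higher in 7109 and 9818 lay within 1.5-fold. Closeness of the KO pair is thus no trait of the called genes.

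**Figure D4:**
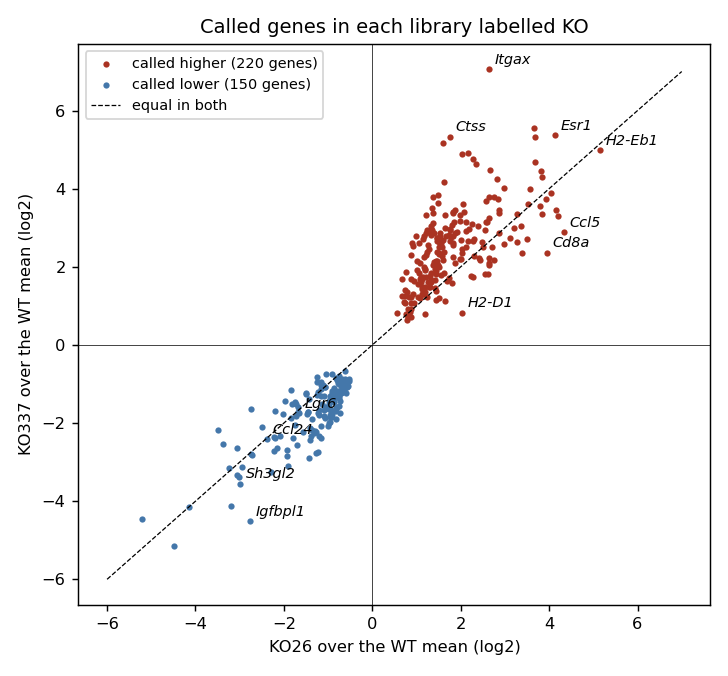
Each point is a called gene; the axes give its level in KO26 and in KO337 over the WT mean (log2, 0.1 CPM added to each value). The 220 genes that rose mostly lie above the dashed line of equality and the 150 that fell mostly on or below it; H2-Eb1, Lgr6, Ccl24 and Sh3gl2 lie near the line, and Itgax and Ctss far above it.

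The largest ratios between the libraries labelled KO are given as a description, since the genes were picked for them. Spp1, which encodes osteopontin, stood at 0.639 and 0.688 CPM in the WT libraries and 1.33 and 3842 CPM in KO26 and KO337, and Gpnmb, a glycoprotein of lipid-laden and damage-associated macrophages, at 9.39 and 8.94 CPM in the WT libraries and 9.69 and 1366 CPM in KO26 and KO337. Together they took 5209 CPM in KO337 and 9.63 to 11 CPM in the other 3 libraries. Clec4d and Clec4e, receptors of activated myeloid cells, stood at 0.934 and 8.38 against 1.15 and 48.4 CPM and 0.442 and 0.625 against 0.519 and 20.8 CPM, and Il1rn, the interleukin 1 receptor antagonist, at 0.147 and 0.813 against 0.692 and 28.1 CPM. The matrix protein gene Tnc stood at 5.06 and 3.56 against 2.19 and 65.3 CPM. In the other direction, the haemoglobin genes summed to 948 CPM in KO26, 38.8 CPM in KO337 and 170 and 72.8 CPM in the WT libraries. In the 6 CTL and IBR libraries, the sum of the 5 erythroid markers ranged from 214 to 2442 CPM. Igf2 stood at 96 and 127 against 116 and 11.2 CPM, low in KO337 alone.

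Collagen and lysosomal genes were high in KO337 and near WT in KO26. Of 14 fibrillar and associated collagen genes 0 passed in edgeR, although 12 were higher at an unadjusted p under 0.05. Col1a1, the main chain of type I collagen, stood at 107 and 98.1 CPM in the WT libraries and 133 and 1657 CPM in KO26 and KO337 (log2 difference 3.13, SE 0.92, adjusted p = 0.0873). The list's median against the WT mean was 0.20 in KO26 and 2.36 in KO337, and its summed level was 1728 and 10707 CPM against 1423 and 1387 CPM in WT. Genes of activated fibroblasts had medians of -0.02 in KO26 and 2.46 in KO337, with 0 of 15 passing and 9 higher at an unadjusted p under 0.05 in edgeR. All 21 tested lysosomal genes were higher in KO337 than in KO26, 1 of them, Ctss, passed, and the medians were 0.17 and 1.30. Of 29 cell cycle genes 1 rose, the ubiquitin-conjugating enzyme Ube2c at 0.541 and 0.625 against 2.31 and 4.08 CPM (adjusted p = 0.0426), 18 were higher at an unadjusted p under 0.05 and 28 were higher in KO337 than in KO26. Unlike the collagens, this list was also above WT in KO26, with medians of 0.68 in KO26 and 1.67 in KO337. In KO26, 11 of the 29 were 2-fold above the WT mean, against 5.61% of all tested genes.

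Muscle and mitochondrial genes showed the reverse order in both libraries. Heart muscle cell markers had medians of -0.41 in KO26 and -1.46 in KO337, and 0 of 11 were higher in KO337 than in KO26. Fatty acid oxidation genes had medians of -0.42 and -1.38, with 25 of 28 2-fold below the WT mean in KO337 and 2 of 28 in KO26. Over all tested genes, 3.97% were 2-fold below in KO26 and 10.6% in KO337. Low muscle genes and high macrophage and collagen genes thus went together in KO337, and how far the share of cell types sets these values was not tested. Immune lists with a higher median in KO26 than in KO337 included MHC class II (2.84 and 2.26), T and NK cell markers (2.49 and 2.01), MHC class I (1.55 and 0.68) and interferon response (1.17 and 0.87). Erythroid markers stood at 2.95 and -1.71.

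**Figure D5:**
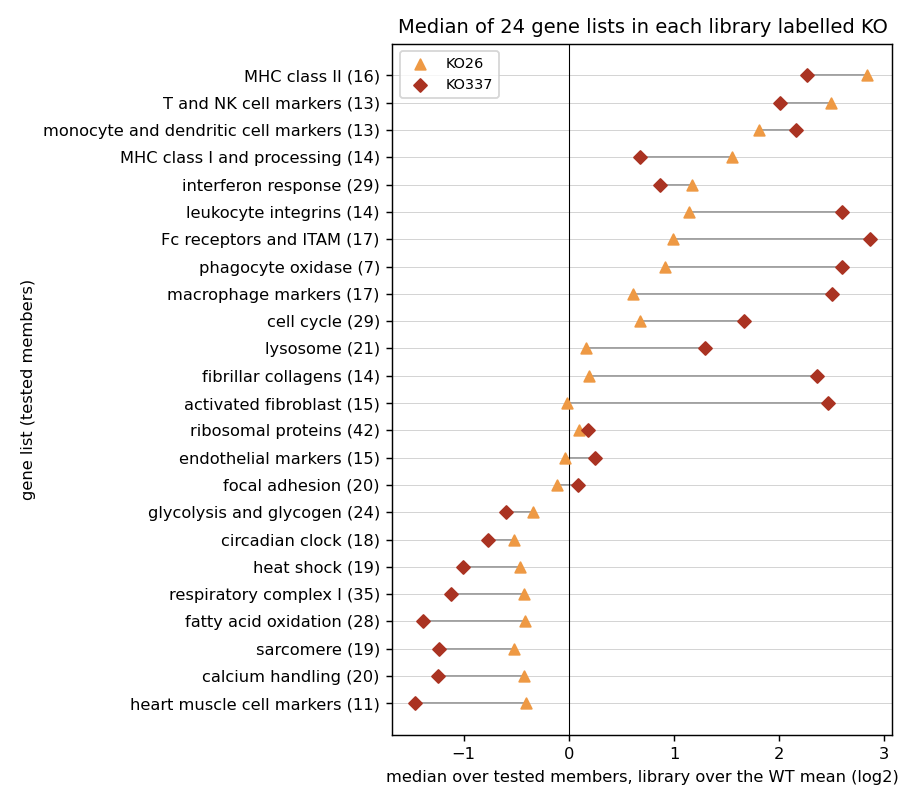
Points give the median over the tested members of 24 gene lists in KO26 (triangles) and KO337 (diamonds) over the WT mean (log2); the number of tested members stands in brackets. MHC class II stands at 2.84 and 2.26, fibrillar collagens at 0.20 and 2.36, and heart muscle cell markers at -0.41 and -1.46 in KO26 and KO337.

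Fits without one library labelled KO leave a KO arm of 1 library, which is assumed to vary like the other groups. Without KO26, 1794 genes were higher and 2078 lower, and these included all 220 and 150. Without KO337, 28 were higher and 20 lower, and 15 and 19 of the main calls were among them. All 220 and 150 kept their sign there, with medians of 1.57 and -1.17 in place of 2.28 and -1.32. Some calls were lost with the fold kept: without KO337 the log2 difference of H2-Aa was 3.76 (adjusted p = 0.0992), that of Cd74 was 3.90 (adjusted p = 0.0863) and that of H2-Ab1 was 4.02 (adjusted p = 0.0591). A lost call therefore does not show that a difference rests on KO337. The 15 that rose and were called without each KO library in turn were H2-Eb1, H2-DMa, H2-D1, Ctss, Esr1, Lgals3bp, Ptpn22, Rgs1, Ccl8, Ccl5, Ccr2, Itgb7, Itgal, Scd2 and the predicted gene Gm6166. The 19 that fell included Lgr6, Ccl24, Ccl11, Sh3gl2, Rps6ka6, Igfbpl1, Casc1, Plppr5, Slc17a7, Egf and Ppm1e. Ctss is on the first list with a log2 difference of 1.74 without KO337, against 4.46 with it. Slc17a7, a vesicular glutamate transporter, stood at 274 and 234 against 110.4 and 50.1 CPM (adjusted p = 0.0364). Leaving out either WT library removed nearly all calls. Without WT35 none of the 220 genes that rose was called, those named above included. All 220 and 150 kept their sign in both fits. Their medians were 2.27 and -1.30 without WT35, and 2.18 and -1.40 without WT338. Across the 18 alternatives tried, Lgr6 and Ccl24 were each called in 17, the most of any gene that fell, and the most for a gene that rose was 15. All main calls held without KO26, so the fit without KO337 alone set which genes were called without each KO library. Which genes these are was read after the values were seen.

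Finally, the effect of the KO label was set against the effect of the IBR label over CTL, which shares no library with it. This difference of effects passed in 4 genes (0.0269% of those tested), among them Lgr6, Ccl24 and Ccl11, all lower in KO than WT. It had an unadjusted p under 0.05 in 1473 genes. In 8 of the alternatives no gene passed, among them the fits without WT35, WT338, CTL1, CTL3 or IBR3. The 2 contrasts come from separate sets of libraries, and which batches these were made in is not given in the sources used here.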

How the data were processed

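Poly(A) RNA of left atria was sequenced in 10 libraries; the kit was directional, per the labels' protocols. The deposited values are raw read counts per Ensembl gene. STAR, HTSeq, edgeR and the mm9 build are named in the submitters' processing notes. Versions: not given in the sources used here. Unstranded counting, which the names of the deposited count files state, mixes overlapping and antisense genes. Rows that name no gene were left out: reads without a feature came to 13.5% to 19.9% and ambiguous reads to 3.14% to 3.99% of all entries in the deposited files, multiply aligned reads included. GENCODE and RefSeq tables of GRCm38 gave symbols for 32860 of 37583 genes and promoter sequences only. The members and gene lists were chosen with earlier results of these data known.

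Genes with 10 or more counts in 2 or more of the WT and KO libraries were tested. A few genes that the counts include are not reported here. All 10 libraries entered 1 edgeR 4.0.16 fit (robust quasi-likelihood, TMM scaling, 4 group means, R 4.3.3) with Benjamini-Hochberg adjustment over all 14894 genes, and a gene was called at an adjusted p under 0.05. The procedure was run on simulated data in which each gene had the same spread in all groups. That run therefore does not show how the calls hold where the spread differs between groups, as it does here. SE is the standard error of the log2 difference. Before TMM scaling, a level of 3 counts is worth 0.15 to 0.201 CPM, and this covers counting error only. The filter let in 264 genes with 10 counts in both KO and no WT library, of which 24 were called higher, and 96 of the reverse, of which 17 were called lower. Each of 75 lists is described by its calls and its median, without a set test; 1165 of 1232 list genes were tested.

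Genes were named by a fixed rule: Csk, Src, Ptprc, Nppa, Nppb, Myl7, Sln and Col1a1; per direction the 12 called genes of largest fold change, the 10 of largest difference in CPM and the 10 with the closest KO values; up to 3 members per list; the 10 genes per direction with the largest ratio between KO337 and KO26; and the genes whose effects differed. Outside this rule, and chosen after their values were seen, are Arntl, Atp2a2, B2m, Cd163, Cd68, Cebpa, Ciita, Cx3cl1, Dbp, Edn1, Egf, Fcer1g, Folr2, Fyn, H2-DMa, H2-DMb1, H2-K1, H2-Ob, Ikzf1, Itgb2, Lyz2, Maf, Nos1, Per2, Rfx5, Rfxank, Rfxap, Ryr2, Spi1, Syk, Timd4, Yes1, Rgs1, Scd2 and Gm6166. Alternatives were DESeq2 1.42.0, limma 3.58.1 with voom weights, other scaling and filters, a replicate block, the WT and KO libraries alone and leaving out each library.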

Additional observations from a re-analysis of the deposited data

Results flagged for a closer look

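In 4 genes the effect of the KO label over WT passed the test for being different from that between IBR and CTL, each with an adjusted p of 0.0467 in edgeR's quasi-likelihood test; 3 of them are described here. No gene passed in 8 of the alternatives, among them total counts, voom weights, the replicate block and the fits without WT35, WT338, CTL1, CTL3 or IBR3. For Lgr6 the log2 difference of effects was -1.58; it was -1.70 for KO against WT and -0.13 for IBR against CTL, with 205, 174 and 212 CPM in CTL and 162, 191 and 189 CPM in IBR. All CTL and IBR values of Lgr6 lay near the WT levels of 203 and 189 CPM.

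For Ccl11 the difference of effects was -3.85 (-3.27 against 0.58), with 4.17, 4.66 and 4.62 CPM in CTL and 7.06, 3.86 and 9.26 CPM in IBR. For Ccl24 it was -2.57 (-2.45 against 0.11), with 2.92, 2.98 and 3.77 CPM in CTL and 3.22, 3.63 and 3.62 CPM in IBR. In both eotaxin genes the WT libraries lay above all CTL and IBR libraries, and the KO libraries below all of them.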

How the results depend on the processing

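All 370 called genes kept the sign of their difference in all 18 alternatives, while the number of calls moved widely. The counts of genes higher, genes lower and genes with a different effect than IBR against CTL were 220, 150 and 4. They were 340, 71 and 0 without composition scaling, 467, 679 and 84 without a filter on low counts, 898, 941 and 145 with DESeq2, 104, 15 and 0 with voom quality weights, and 7, 10 and 0 with a replicate block for CTL and IBR. The block could take in only CTL and IBR, since WT and KO share no replicate number. The fit of the WT and KO libraries alone called 0 and 0 genes, with 2114 at an unadjusted p under 0.05. Leaving out each library in turn gave 1 to 1794 genes higher, 11 to 2078 lower and 0 to 1537 with a different effect. The low end came without WT35 (1 and 11) and WT338 (2 and 13) and the high end without KO26; without IBR3 there were 8 and 16, and without KO337 28 and 20. Without CTL1, CTL2 and CTL3 there were 62 and 47, 84 and 63, and 125 and 81, and without IBR1 and IBR2 80 and 43, and 109 and 63. The cause of these shifts was not tested. DESeq2 size factors in edgeR (219, 179 and 4) and another filter (201, 138 and 4) changed little. List medians were counted as moved where they shifted by at least their spread between libraries of a group. Of 75 list medians, 25 moved without KO26, 22 without KO337 and 17 without composition scaling. In the other alternatives 0 to 6 moved.

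Without composition scaling, the median log2 difference of all genes was 0.235 in place of 0.01, and 82.7% of calls were higher in place of 59.5%. Psca, at 2.26 and 5.94 against 31.2 and 0.18 CPM, was the 1 named result that changed sign against a call, from 1.94 (not called) to -4.45 without KO26, against 2.91 without KO337. Depth limits genes near 0.2 CPM.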
